A study of Xenopus tropicalis with 12 samples.

Results

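The expressed new_exon features are stretches of the X. tropicalis genome that carry reads in the tadpole brain but no gene id. The deposited table holds 33875 features. Of these, 22820 have an XLOC id, the gene model of the study, and 11055 have an id that starts with new_exon, followed by the number of a genome scaffold and a further number. Features of the second kind were kept when their mean over the 12 libraries reached 1 in CPM (counts-per-million, the count divided by the library total and scaled), which gave 1970 of 11055, or 17.8%. The features were thus chosen by their mean CPM, and their levels are described below and not tested. The sources used here do not describe how new_exon features were found or what the last number of the id stands for, and no function can be given for any of them.

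RNA came from the preoptic area, thalamus and hypothalamus of tadpoles at Nieuwkoop-Faber (NF) stage 54, dissected together with the pituitary. WT tadpoles, of a colony of purchased frogs, and thra mt-exon4 tadpoles were each kept for 16 h in water with 5 nM T3 or with vehicle, a dilute NaOH solution (the series' design text names DMSO instead). The thra mt-exon4 animals, called thra mutant here, were homozygotes from crosses of heterozygous frogs of 1 line, with an inactivating lesion made by TALEN in exon 4 of thra, the gene of thyroid hormone receptor α. Each of the 4 groups had 3 libraries, and each library pooled 5 tadpoles, so the p values measure the spread between pools. The sources used here do not say whether WT tadpoles had the same parents, so genotype and family cannot be told apart.

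T3 acts through nuclear receptors that sit on DNA at target genes. Without hormone the receptors hold these genes down, and with hormone they activate them, and hormone drives the metamorphosis of the tadpole brain. RNA sequencing also records transcripts that lie outside a gene model, such as exons or transcript ends that the annotation missed and non-coding RNAs. In whole tissue, fewer cells of a type and less RNA per cell cannot be told apart.

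The library totals ran from 41012481 to 67603683 counts. Markers of neurons (snap25, elavl3) and of radial glia (slc1a3) were high in every library, with group means of 347 CPM or more, and otop1, an inner ear gene, was at 0.040 CPM or less in all libraries but those of WT T3, where it had 1.56, 2.98 and 2.28 CPM. By edgeR, slc1a3 fell with T3 in WT by 0.21 on the log2 scale (adjusted p = 0.032). There dlx1, a forebrain gene, and oxt, the oxytocin-family hormone gene, rose by 0.35 and 0.58 (adjusted p = 0.030 and 0.024). In the mutant under T3, elavl3 and oxt were lower by 0.26 and 0.84 (adjusted p = 0.043 and 0.0071). The other neuron marker, snap25, was not called there (0.075, adjusted p = 0.45). For T3 in WT the neuron markers went opposite ways and were not called (snap25 -0.17, elavl3 0.23, adjusted p = 0.065 and 0.051). All these markers come from a list of genes that the study called for T3 in WT. Their WT tests are thus not independent of that choice. The part of tissue makeup in the results below was not tested. The transcription factor gene klf9, a direct target of T3 in frogs, had 25.5, 26.9 and 10.7 CPM in WT vehicle against 335, 316 and 347 CPM in WT T3. In the thra mutant klf9 had 40.2, 39.3 and 33.1 CPM in vehicle against 223, 182 and 185 CPM in T3. WT vehicle replicate 3 was the low library for klf9 and stood apart for several features below. Of the 154 expressed new_exon features called for T3 in WT, 82 were still called without it. The share of all features called was then 6.84%, against 10.9% with all libraries. Only some of the lost calls are named below.

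The expressed new_exon features held between 4.08% and 4.33% of all counts in a library, and 97.7% of all counts on new_exon ids. Their share of the counts was 4.13% ± 0.0117 (SD, n = 3) in WT vehicle and 4.13% ± 0.0647 in WT T3, 4.24% ± 0.0788 in mutant vehicle and 4.17% ± 0.119 in mutant T3. These values enter the rule, so they are given without a test. In vehicle the share was higher in all 3 mutant libraries than in all 3 WT libraries, by 0.115 percentage points, and in the other comparisons the groups overlapped.

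Most of these features were low and a few were very high. The median level was 4.90 CPM, with a range of 1.0003 to 3873 CPM, and 53 features were above 100 CPM. The 10 most abundant held 28.1% of the counts on expressed new_exon features and the 100 most abundant 56.3%. None was at 0 in any library, though 285 were under 1 CPM in at least 1 library and 133 had a mean under 1 CPM in at least 1 group. Of these 133, 10 were called for T3 in WT, 2 for T3 in the mutant and 4 for genotype under T3. Of the 1970 features, 7.82%, 0.254% and 6.29% were called in these comparisons, and of all features tested 10.9%, 0.254% and 6.88%. The counts are thus not read as an excess. A feature that passed only through the group in which it is high had to differ. Just inside the limit were new_exon_scaffold_29_855, new_exon_scaffold_289_336 and new_exon_scaffold_104_165, at 1.0003, 1.0014 and 1.0014 CPM, and just outside were new_exon_scaffold_266_184 at 0.9996 CPM, new_exon_scaffold_480_668 at 0.997 CPM and new_exon_scaffold_421_1324 at 0.996 CPM.

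The features that passed the limit were long for their kind. Their median length was 1224 bases (range 47 to 16817) against 206 bases for the 9085 new_exon features under 1 CPM and 3939 bases for the 15188 XLOC genes of 1 CPM or more. The share of new_exon features that passed rose from 2.58% at 200 bases or less to 25.0% between 500 and 1000 bases and 90.6% above 5000 bases. Since CPM is not corrected for length, a long feature reaches 1 CPM at a lower level per base. Across the 1970 features CPM rose with length (Spearman's rho = 0.50) and TPM (transcripts-per-million, the authors' length-corrected level) fell with it (rho = -0.28). The features share libraries and depth, so both are descriptions. Per length, the median level of the expressed new_exon features was 18.0 TPM, beside 21.2 TPM for XLOC genes of 1 CPM or more. In CPM the medians were 4.90 and 23.8. New_exon features under the limit had a median of 0.379 TPM. A limit in CPM asks for a higher TPM of a short feature than of a long one. The medians in TPM thus do not compare the 2 kinds of feature.

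**Figure D1:**
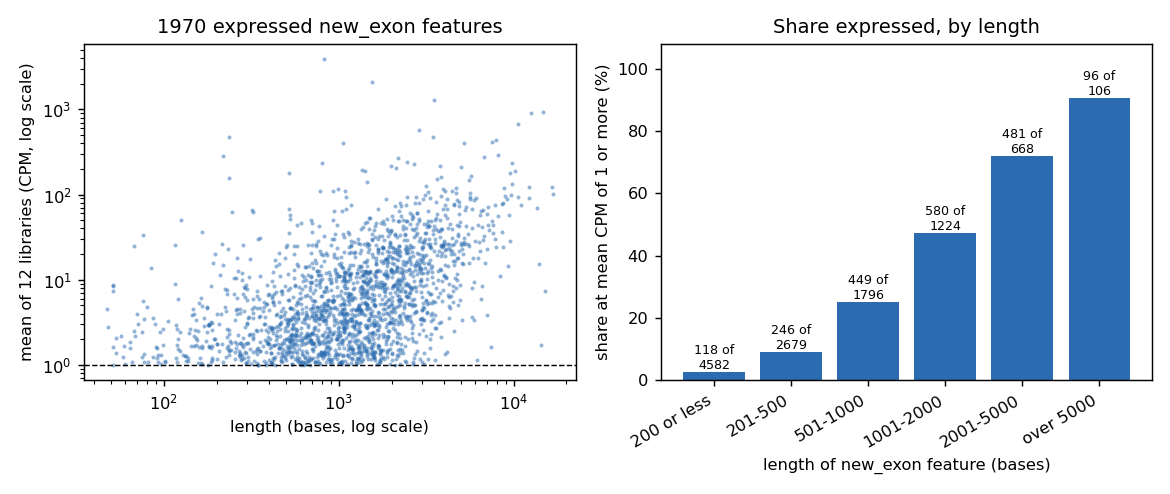
Left, mean CPM over 12 libraries against length in bases for the 1970 expressed new_exon features, both on log scales, with a dashed line at the limit of 1 CPM. Right, bars give the percentage of new_exon features in each length class with a mean of 1 CPM or more, which climbs from 2.58% in the shortest class to 90.6% in the longest.

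Per length, the highest feature of the whole table was a new_exon feature. new_exon_scaffold_43_996, 821 bases long, had a mean of 16283 TPM, the first rank among 33875 features, and 3873 CPM, the seventh. Its level was 4136, 4091 and 3327 CPM in WT vehicle, 3851, 3915 and 3743 CPM in WT T3, 4095, 3680 and 3992 CPM in mutant vehicle and 4016, 3703 and 3926 CPM in mutant T3. The groups overlapped, and the log2 fold change with T3 was 0.00 ± 0.08 (SE) in WT and -0.03 ± 0.08 in the mutant (edgeR's quasi-likelihood test, adjusted p = 0.997 and 0.956).

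The feature of the next rank per length, new_exon_scaffold_19023_261 (234 bases), had a mean of 7956 TPM. The ratio of the first feature's CPM to that of the second stayed between 7.64 and 8.69 over the 12 libraries, with a median of 8.17. WT vehicle replicate 3 was the lowest library for both, at 3327 and 405 CPM. Elsewhere their orders could differ: in mutant vehicle the second had 481, 482 and 506 CPM beside 4095, 3680 and 3992 CPM of the first. The ratio was not set beside that of other pairs. In all, 4 expressed new_exon features were among the 10 highest features of the table by TPM and 16 among the 100 highest. The other members of the first 10 were new_exon_scaffold_268_357 (218 bases, 5139 TPM) and new_exon_scaffold_18215_822 (1547 bases, 4542 TPM). Ranks by TPM of the shortest features have to be read with their counts: new_exon_scaffold_239_422 and new_exon_scaffold_260_315, both 51 bases long, had 2162 and 2129 TPM from only 8.59 and 8.46 CPM, since the correction for length weighs most on the shortest features.

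None of the 10 features of highest CPM was called for T3 in either genotype. Of all features tested, 10.9% were called in WT and 0.254% in the mutant, and 10 features are too few to set against these shares. new_exon_scaffold_18215_822 came nearest in WT, with 2048, 1905 and 1658 CPM in vehicle and 2507, 2656 and 2086 CPM in T3. These groups did not overlap, but the log2 fold change of 0.37 ± 0.14 had an adjusted p of 0.11 in edgeR, and the mutant libraries spread as widely within a group, from 1730 to 2309 CPM in vehicle. The others, new_exon_scaffold_225_254, new_exon_scaffold_101_1327, new_exon_scaffold_30_1142, new_exon_scaffold_101_1536, new_exon_scaffold_230_629, new_exon_scaffold_8666_1063 and new_exon_scaffold_110_616, had means of 438 to 1292 CPM and WT fold changes between -0.17 and 0.02 on the log2 scale. All 10 had counts that were not whole numbers in all 12 libraries. The same held for 1041 of the 1970 features, while 90 had whole counts in every library. Among XLOC genes of 1 CPM or more, 200 of 15188 had whole counts in every library. An estimated count that is not whole comes from reads that fit more than 1 feature and were shared out among them, so the levels of such features depend on that sharing.

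Features near each other in number had like levels and like fold changes. Of the 1520 scaffolds with a new_exon feature, 872 held an expressed one. A single expressed feature was found on 464 scaffolds, 2 to 4 on 311, and 5 or more on 97, which held 684 features. The most were on scaffold 2 (21), scaffold 535 (20), scaffold 41 (18), scaffold 154 (17) and scaffold 4 (16). In WT, no feature was called for T3 on scaffolds 535, 41 and 154, 1 of 21 on scaffold 2 and 3 of 16 on scaffold 4. Beside this, 7.82% of the 1970 expressed new_exon features and 10.9% of all features tested were called.

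For 195 pairs of features whose numbers differ by 1 on the same scaffold, the WT fold changes with T3 had the same sign in 71.8%, against 50.6% of the 1936142 pairs on different scaffolds. The share was 65.6% for 128 pairs with numbers 2 apart, 55.0% for 338 pairs 3 to 10 apart, 49.4% for 1318 pairs 11 to 100 apart and 51.8% for 1344 pairs further apart. In the thra mutant, which shares no library with WT, it was 66.2%, 64.1%, 59.2%, 48.9% and 47.8%. Like signs were not particular to T3: for genotype in vehicle the shares were 63.6%, 66.4%, 51.5%, 52.4% and 50.3%. Neighbours can share reads or a transcript, and the part of this was not tested. Levels per length ran together too: the median difference of log2 TPM was 0.52 in pairs 1 apart and 1.56 in pairs more than 100 apart. These are descriptions over pairs that share libraries and, in part, features. The distance classes were chosen after the values were seen. Without scaffolds 515 and 341 the share of pairs 1 apart was 70.9% in WT.

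**Figure D2:**
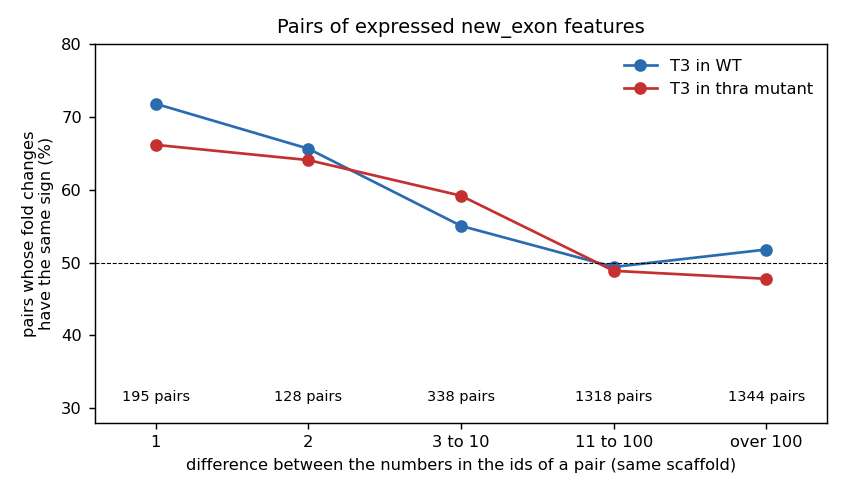
Percentage of pairs of expressed new_exon features on the same scaffold whose log2 fold changes with T3 have the same sign, by the difference of their id numbers, in WT (blue) and thra mutant (red), with the number of pairs and a dashed line at 50%. Both lines start above 60%, at 71.8% and 66.2%, and are near 50% for pairs more than 10 apart.

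The first comparison asked which features changed with T3 in WT brain. By edgeR at an adjusted p under 0.05, 69 expressed new_exon features rose and 85 fell. That was 7.82% of the 1970, against 10.9% of all 22018 features tested (5.37% up and 5.53% down) and 14.3% of XLOC genes of 1 CPM or more. The share was also lower at like levels: between 5 and 20 CPM 8.89% of new_exon features and 13.3% of XLOC genes were called, and between 20 and 100 CPM 15.04% and 18.4%. At like lengths it was lower in all classes but that of 500 to 1000 bases, where 6.46% and 6.38% were called. The shares were 1.69% and 5.17% at 200 bases or less and 2.03% and 5.97% between 200 and 500 bases. These shortest classes rest on 2 and 5 called new_exon features. Between 1000 and 2000 bases the shares were 6.72% and 9.34%, and between 2000 and 5000 bases 12.9% and 14.3%. Above 5000 bases they were nearly equal, at 17.7% and 17.8%. The WT groups did not overlap for 584 features (29.6%), against 32.5% of all features tested. The median fold change of the 1970 features was -0.03 on the log2 scale, next to -0.02 over all features tested. The count depended on single libraries, falling to 57 without WT T3 replicate 1, 59 without replicate 3 and 94 without replicate 2 of that group, and to 98 without WT vehicle replicate 3 and 103 without replicate 2. The share of all features called fell too, in the same order to 3.82%, 3.68% and 6.5% and to 6.84% and 7.64%.

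**Figure D3:**
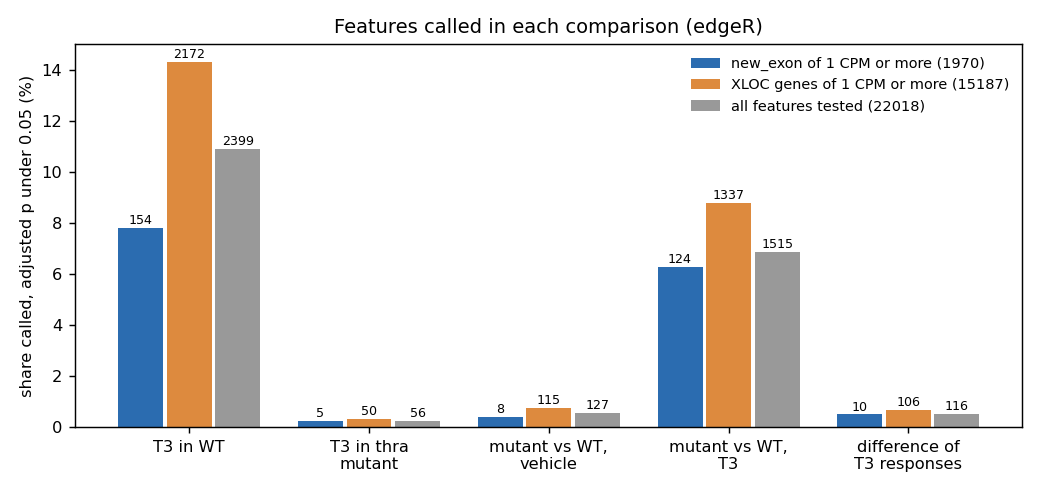
Percentage of features with an adjusted p under 0.05 in each of the 5 comparisons, for expressed new_exon features (blue), XLOC genes of 1 CPM or more (orange) and all features tested (grey), with the number of features called above each bar. New_exon features were called in 7.82% of cases for T3 in WT, below both other bars, and in under 1% for T3 in the thra mutant.

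Of the 69 that rose, 30 exceeded 0.5 and 12 exceeded 1 on the log2 scale, with a median of 0.47. Of the 85 that fell, 48 and 12 did, with a median of -0.58. For all features called in WT the medians were 0.37 for the 1182 that rose and -0.45 for the 1217 that fell. The share of all called features beyond 0.5 or 1 was not counted. Among called new_exon features the median size of the change fell with level, from 1.01 between 1 and 2 CPM to 0.23 above 100 CPM. The medians are thus not read as larger responses of new_exon features. The features that changed were longer and higher than the rest, at a median of 2302 bases and 13.4 CPM for those that rose and 1956 bases and 8.85 CPM for those that fell, and depth of counts sets the power of the test.

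The largest rise was that of new_exon_scaffold_158_81, 2630 bases long. It had 0.404, 0.726 and 0.253 CPM in WT vehicle and 5.25, 4.73 and 5.80 CPM in WT T3, with no fewer than 12 counts in a library. Its vehicle means were under 1 CPM in both genotypes, so that it passed the limit only through the T3 libraries. The groups were far apart, and the log2 fold change was 3.49 ± 0.32 (adjusted p = 3.0e-05 in edgeR). It was also among the few called in the thra mutant, with 1.11, 0.559 and 0.636 CPM in vehicle and 3.605, 2.66 and 2.64 CPM in T3, a log2 fold change of 1.93 ± 0.30 (adjusted p = 0.018). The mutant call was lost without mutant vehicle replicate 2 or 3 or without mutant T3 replicate 2 (adjusted p up to 0.098). Of its 12 libraries, 11 had a whole count.

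Scaffold 515 was the only scaffold with 5 expressed new_exon features all called upward. Their numbers run from 1182 to 1200 and they add up to 16454 bases. Summed over the 5, the level was 26.3, 25.9 and 19.7 CPM in WT vehicle and 71.4, 66.7 and 72.2 CPM in WT T3. In the thra mutant it was 31.1, 29.2 and 23.7 CPM in vehicle and 43.3, 38.5 and 41.1 CPM in T3. All T3 libraries were above all vehicle libraries in both genotypes, and the WT T3 libraries were above those of the mutant.

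Each of the 5 features was highest in WT T3. new_exon_scaffold_515_1199 had 9.09, 9.78 and 7.81 CPM in WT vehicle, 24.8, 25.6 and 24.2 CPM in WT T3, 11.2, 11.3 and 9.38 CPM in mutant vehicle and 17.8, 14.9 and 16.2 CPM in mutant T3. Its log2 fold change was 1.49 ± 0.11 in WT and 0.61 ± 0.10 in the mutant (adjusted p = 2.7e-06 and 0.035 in edgeR), the only mutant call of the 5. new_exon_scaffold_515_1189 had 2.24, 1.91 and 1.62 CPM in WT vehicle and 6.59, 6.07 and 6.19 CPM in WT T3, and its fold change of 1.71 ± 0.14 was the highest of the scaffold. new_exon_scaffold_515_1197 and new_exon_scaffold_515_1182 rose by 1.65 ± 0.18 and 1.64 ± 0.14, and new_exon_scaffold_515_1200 by 1.31 ± 0.21. All 5 WT calls held in all 18 alternatives. In the mutant the fold changes of the 5 lay between 0.41 and 0.61. The scaffold's other 5 new_exon features were under 1 CPM. Of these, 3 were tested and none was called, with WT fold changes of 1.25 to 1.85 and means of 0.298 CPM or less.

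Scaffold 341 held the longest run that fell. Its features numbered 429 to 433, 5888 bases in all, had a summed level of 132, 123 and 159 CPM in WT vehicle and 81.9, 88.9 and 88.6 CPM in WT T3. In the thra mutant the sums were 137, 140.5 and 144 CPM in vehicle and 111, 106 and 110.3 CPM in T3. T3 libraries were below vehicle libraries in both genotypes. In WT all 5 fell, by 0.63 to 0.72 on the log2 scale (adjusted p from 0.00037 to 0.0086 in edgeR), and these calls held in all 18 alternatives.

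Within that run, new_exon_scaffold_341_430 had 31.3, 27.4 and 36.1 CPM in WT vehicle and 18.8, 19.4 and 19.96 CPM in WT T3, with 33.7, 32.4 and 32.7 CPM in mutant vehicle and 24.7, 23.9 and 24.8 CPM in mutant T3. Its log2 fold change was -0.70 ± 0.08 in WT and -0.44 ± 0.08 in the mutant (adjusted p = 0.00037 and 0.053). None of the 5 was called in the mutant, where their fold changes were between -0.44 and -0.34, nor for a difference between the responses, at 0.25 to 0.36. The lack of mutant calls was less firm than the WT calls. Of 18 alternatives, 5 called feature 430 in the mutant, 3 called 432, 2 called 429, 1 called 433 and 0 called 431. The 3 other expressed features of the scaffold, new_exon_scaffold_341_439, new_exon_scaffold_341_440 and new_exon_scaffold_341_525, had WT fold changes of 0.10, 0.12 and 0.29 and were not called. For the last of these the WT groups did not overlap (adjusted p = 0.057 in edgeR). The like response thus covered the consecutive numbers and not the scaffold.

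**Figure D4:**
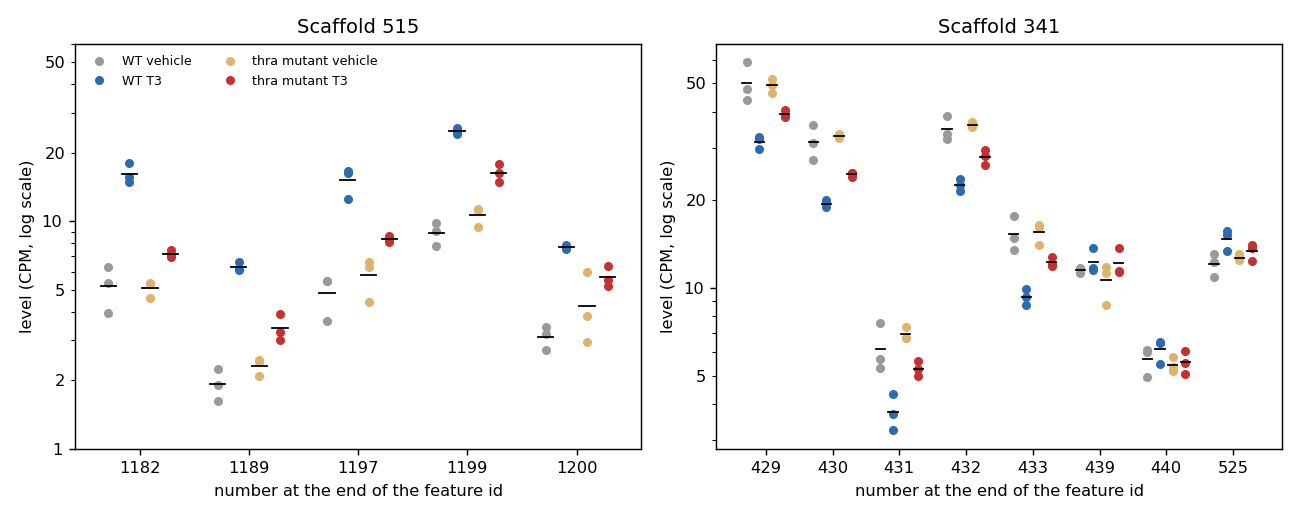
Level in CPM, on a log scale, of each expressed new_exon feature of scaffolds 515 and 341, named by the last number of its id, with 1 point per library and a black line at each group mean. All 5 features of scaffold 515 are highest in WT T3, and the features 429 to 433 of scaffold 341 are lowest there. Features 439, 440 and 525 have their highest group mean in WT T3, and none of them was called.

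Scaffolds on which features changed in opposite directions also occurred. A called feature was found on 129 scaffolds, and 2 or more on 15, of which 4 had only rises, 5 only falls and 6 both. On scaffold 4, new_exon_scaffold_4_695 rose (0.58 ± 0.14) while new_exon_scaffold_4_888 and new_exon_scaffold_4_1334 fell (-1.55 ± 0.40 and -0.50 ± 0.10). Scaffold 303 had 3 rises of 0.27 to 0.46, in features 1737, 1834 and 1835, and scaffold 45 had 3 falls of -0.94 to -0.31, in features 1030, 1370 and 1429. The calls of 1737 and 1834 were lost in 10 and 11 of 18 alternatives and those of 1370 and 1429 in 7 and 9, WT vehicle replicate 3 left out being among them for all 4. Among the 195 pairs 1 apart, both features were called in 8 pairs, all of the same direction, and 5 of the 8 pairs were on scaffolds 341 and 515.

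A further rise in WT was that of new_exon_scaffold_884_1299 (5003 bases), with 19.3, 17.0 and 10.9 CPM in vehicle and 45.7, 46.0 and 47.6 CPM in T3. Its log2 fold change was 1.56 ± 0.15 (adjusted p = 4.6e-05 in edgeR). In the mutant it had 18.8, 21.0 and 22.4 CPM in vehicle and 26.5, 25.5 and 26.9 CPM in T3, which do not overlap, but the fold change of 0.33 ± 0.15 was not called (adjusted p = 0.49).

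The largest falls in WT were those of low features, and they were less firm. new_exon_scaffold_266_187 had 2.20, 2.27 and 9.98 CPM in WT vehicle and 0.732, 1.02 and 1.54 CPM in WT T3. A single vehicle library stood far above the other two. The log2 fold change was -2.10 ± 0.61 (adjusted p = 0.043), and it was -1.003 and not called without WT vehicle replicate 3. That feature was also uneven in mutant vehicle, at 2.93, 10.9 and 5.08 CPM.

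For new_exon_scaffold_4_888 the WT libraries had 1.11, 1.41 and 2.11 CPM in vehicle and 0.538, 0.390 and 0.627 CPM in T3. new_exon_scaffold_1132_21, new_exon_scaffold_34_962 and new_exon_scaffold_87_1045, at 1.27 to 2.61 CPM in WT vehicle and 0.395 to 1.13 CPM in WT T3, fell by 1.39 ± 0.36, 1.24 ± 0.28 and 1.20 ± 0.30 on the log2 scale. All 4 had a mean under the limit in WT T3. The mean of new_exon_scaffold_1132_21 was 0.547 CPM in WT T3 and 0.926 CPM in mutant T3. That feature thus passed the limit only through the vehicle libraries, in which it was high. The calls of these 4 were lost in 2 to 6 of 18 alternatives, among them leaving out WT T3 replicate 1 (adjusted p up to 0.12 over all alternatives). Without WT vehicle replicate 3 the calls of new_exon_scaffold_4_888, new_exon_scaffold_1132_21 and new_exon_scaffold_87_1045 were lost.

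In the thra mutant, 5 expressed new_exon features rose with T3 and none fell. That was 0.254% of the 1970, the same as the 0.254% of all features tested (0.200% up and 0.0545% down). At an unadjusted p under 0.05 there were 177 features in either direction (8.98%, against 9.76% of all features tested). DESeq2 called 14 up and 17 down, where it called 2.16% of all the features to which it gave an adjusted p, and limma-voom called 3 up, where it called 0.186% of all. The groups did not overlap for 293 features (14.9%), against 15.3% of all features tested. Besides new_exon_scaffold_158_81 and new_exon_scaffold_515_1199, the 5 were new_exon_scaffold_332_785, new_exon_scaffold_2_750 and new_exon_scaffold_342_394. Leaving out mutant vehicle replicate 2 or mutant T3 replicate 2 ended all 5 calls, where 0.111% and 0.116% of all features were called. No call held in all 18 alternatives.

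A pair of them was called in the mutant and not in WT. new_exon_scaffold_2_750 had 0.605, 0.314 and 0.449 CPM in mutant vehicle and 1.55, 1.69 and 1.42 CPM in mutant T3, a log2 fold change of 1.75 ± 0.31 (adjusted p = 0.039 in edgeR), with 1.4996, 1.53 and 0.758 CPM in WT vehicle and 1.45, 1.19 and 1.90 CPM in WT T3. Mutant vehicle was the low group here, with a mean of 0.456 CPM that was under the limit, and the other groups overlapped. new_exon_scaffold_342_394 had 1.67, 1.90 and 2.31 CPM in mutant vehicle and 4.16, 4.13 and 3.22 CPM in mutant T3 (0.95 ± 0.16, adjusted p = 0.035), with 3.21, 2.65 and 2.67 CPM in WT vehicle and 3.46, 4.46 and 4.29 CPM in WT T3 (0.52 ± 0.16, adjusted p = 0.055). Neither feature was called for a difference between the 2 responses.

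Of the 69 features that rose in WT, 55 (79.7%) had a fold change above 0 in the mutant, against 74.9% of the 1182 features of any kind that rose in WT. Of the 85 that fell, 71 (83.5%) were below 0 in the mutant, against 76.4% of the 1217 of any kind. The median fold changes in the mutant were 0.11 and -0.16, next to 0.47 and -0.58 in WT, where the features were picked for their change, so that the sizes cannot be compared. Of the 154 features, 3 were also called in the mutant, all upward. The same share over all features called in WT was not counted, so the 3 cannot be read as particular to new_exon features.

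**Figure D5:**
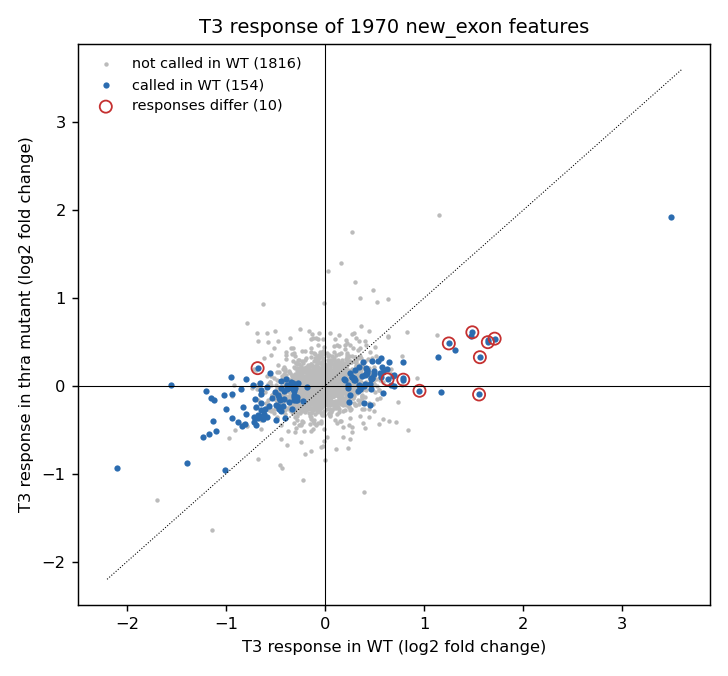
Log2 fold change with T3 in thra mutant against that in WT for 1970 expressed new_exon features, with the 154 called in WT in blue, the 10 whose responses differ between genotypes circled in red and a dotted line where both are equal. The feature at the far right is new_exon_scaffold_158_81, at 3.49 in WT and 1.93 in the mutant. Blue points were picked for their change on the horizontal axis, so their distances from 0 on the 2 axes cannot be compared.

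The difference between the responses was itself tested, and 10 expressed new_exon features were called, 9 with a lower and 1 with a higher value in the mutant. That was 0.508% of the 1970 and 0.527% of all features tested (0.173% up and 0.354% down). The 9 were features that rose in WT, and the last one fell in WT. The same WT libraries enter the WT response and the difference, so these directions are not independent. The count was between 2 and 10 when single libraries were left out, at 2 without WT T3 replicate 1 or 3, and at 4 without WT T3 replicate 2, mutant vehicle replicate 1 or mutant T3 replicate 2. It was 6 without WT vehicle replicate 2 or mutant T3 replicate 3. With single libraries left out, 0.17% to 0.575% of all features were called.

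new_exon_scaffold_332_785 (6204 bases) had the smallest adjusted p of the 10. Its levels were 25.6, 25.5 and 23.4 CPM in WT vehicle, 60.8, 56.5 and 59.2 CPM in WT T3, 42.3, 35.8 and 36.2 CPM in mutant vehicle and 56.7, 54.1 and 50.5 CPM in mutant T3. The mutant thus started higher, by 0.64 ± 0.08 on the log2 scale (adjusted p = 0.0029), and rose by 0.48 ± 0.08 against 1.25 ± 0.08 in WT. The responses differed by -0.77 ± 0.11 (adjusted p = 0.0073 in edgeR), in all 17 alternatives. The mutant vehicle libraries enter both the starting level and the mutant response.

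Without any call in the mutant, new_exon_scaffold_448_747 (6493 bases) had 59.0, 51.8 and 42.8 CPM in WT vehicle and 114, 86.8 and 95.8 CPM in WT T3, against 59.97, 56.0 and 50.8 CPM in mutant vehicle and 51.2, 51.9 and 58.6 CPM in mutant T3. Its responses differed by -1.01 ± 0.17 (adjusted p = 0.019). new_exon_scaffold_129_197 had 2.07, 1.59 and 1.92 CPM in WT vehicle and 5.95, 4.65 and 5.66 CPM in WT T3, against 1.78, 2.33 and 1.97 CPM in mutant vehicle and 2.25, 1.21 and 2.26 CPM in mutant T3. That was the widest difference, -1.65 ± 0.30 (adjusted p = 0.030). In both, the mutant groups overlapped and WT T3 stood above the other groups.

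The feature that fell in WT, new_exon_scaffold_482_735, had 17.8, 19.4 and 20.9 CPM in WT vehicle and 11.2, 13.7 and 11.3 CPM in WT T3. In the mutant it had 14.4, 14.4 and 15.7 CPM in vehicle and 16.2, 19.8 and 15.6 CPM in T3, and the responses differed by 0.88 ± 0.16 (adjusted p = 0.027). Of scaffold 515, features 1189, 1182 and 1199 were called, at -1.17 ± 0.20, -1.15 ± 0.20 and -0.88 ± 0.15, and new_exon_scaffold_884_1299 differed by -1.24 ± 0.21. The last 2, new_exon_scaffold_363_627 and new_exon_scaffold_92_1207, fall outside the rule by which features were named and were added after their values were seen. new_exon_scaffold_363_627 had 17.3, 18.8 and 15.8 CPM in WT vehicle, 29.8, 29.6 and 29.99 CPM in WT T3 and 20.8 to 22.9 CPM in the 6 mutant libraries.

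In vehicle, 8 expressed new_exon features differed between genotypes, 5 higher and 3 lower in the mutant. That was 0.406% of the 1970 against 0.577% of all features tested (0.164% up and 0.413% down). The groups did not overlap for 292 features (14.8%), against 15.2% of all. This comparison shares the WT vehicle libraries with that of T3 in WT, and the mutant vehicle libraries with that of T3 in the mutant. The count was 32 without WT vehicle replicate 3, at most 2 without WT vehicle replicate 1 or 2 or mutant vehicle replicate 1 or 2, and 4 without mutant vehicle replicate 3. Of all features, 2.25%, 0.147% to 0.209% and 0.29% were called in these fits.

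The widest difference was that of new_exon_scaffold_1104_338 (1707 bases). It had 79.3, 89.7 and 37.2 CPM in WT vehicle and 19.7, 13.6 and 13.8 CPM in mutant vehicle, a log2 difference of -2.11 ± 0.31 (adjusted p = 0.0092 in edgeR). Under T3 it had 43.2, 23.8 and 38.3 CPM in WT and 8.33, 10.04 and 13.0 CPM in the mutant, a difference of -1.74 ± 0.31 (adjusted p = 0.0084). All 6 mutant libraries were below all 6 WT libraries, and the value in vehicle was -2.41 without WT vehicle replicate 3, the lowest WT vehicle library. The call in vehicle was lost without mutant vehicle replicate 2 (adjusted p = 0.051) or when only the 2 groups were fitted.

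Several features were higher in the mutant in both conditions. new_exon_scaffold_281_363 had 46.9, 51.1 and 62.3 CPM in WT vehicle and 84.3, 74.5 and 73.6 CPM in mutant vehicle, with 51.3, 58.8 and 53.0 CPM in WT T3 and 78.2, 71.0 and 73.3 CPM in mutant T3. Its differences were 0.56 ± 0.10 and 0.46 ± 0.10 (adjusted p = 0.020 and 0.018). new_exon_scaffold_611_2154 and new_exon_scaffold_3361_546 were higher by 0.45 ± 0.08 and 0.42 ± 0.08 in vehicle and by 0.37 ± 0.08 and 0.35 ± 0.08 under T3, and were not called for T3 in either genotype. new_exon_scaffold_28_511 was higher in the mutant in vehicle only by the test, at 24.3, 26.6 and 28.3 CPM in WT and 36.2, 36.6 and 32.2 CPM in the mutant (0.43 ± 0.07, adjusted p = 0.020), and it rose with T3 in WT to 35.8, 36.5 and 33.9 CPM.

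The others that were lower in the mutant were new_exon_scaffold_421_1323 (-0.59 ± 0.12, adjusted p = 0.045) and new_exon_scaffold_248_284 (-0.50 ± 0.09, adjusted p = 0.024). The first had 3.58, 3.45 and 3.70 CPM in WT vehicle against 2.15 to 2.63 CPM in the 9 libraries of the other groups, so that WT vehicle alone was high. The second had 27.3, 29.6 and 27.9 CPM in WT vehicle and 19.8, 18.9 and 20.4 CPM in mutant vehicle. No vehicle call other than that of new_exon_scaffold_332_785, which was lost only when the 2 groups were fitted alone, and that of new_exon_scaffold_1104_338 held in more than 12 of 18 alternatives.

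Under T3, 124 expressed new_exon features differed between genotypes, 72 higher and 52 lower in the mutant. That was 6.29% of the 1970 against 6.88% of all features tested (3.70% up and 3.18% down). The groups did not overlap for 640 features (32.5%), against 34.1% of all. The medians were 0.47 and -0.54 on the log2 scale. This comparison shares the WT T3 libraries with that of T3 in WT, so the calls of both are not independent. The count was 22 without WT T3 replicate 3, 30 without replicate 1 and 68 without replicate 2 of that group, 46 to 59 without 1 of the mutant T3 libraries and 198 without WT vehicle replicate 3. The shares of all features called were 1.31%, 1.67%, 3.29%, 2.33% to 3.17% and 11.8%.

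The 5 largest differences upward were those of new_exon_scaffold_389_658, new_exon_scaffold_163_99, new_exon_scaffold_320_971, new_exon_scaffold_117_74 and new_exon_scaffold_138_103, at 0.83 to 1.20 on the log2 scale. In new_exon_scaffold_320_971 (2210 bases) the WT T3 libraries had 2.86, 4.88 and 3.18 CPM and the mutant T3 libraries 7.97, 7.24 and 6.75 CPM, a difference of 1.02 ± 0.16 (adjusted p = 0.0046 in edgeR) that held in all 18 alternatives. In vehicle it had 6.32, 6.41 and 6.65 CPM in WT and 9.27, 8.20 and 8.30 CPM in the mutant. Of the 5, all but new_exon_scaffold_163_99 also fell with T3 in WT, a call that new_exon_scaffold_117_74 lost without WT vehicle replicate 3. In WT T3 the mean of new_exon_scaffold_163_99 was 0.553 CPM, under the limit.

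The 5 largest downward were those of new_exon_scaffold_1104_338, new_exon_scaffold_393_609, new_exon_scaffold_129_197, new_exon_scaffold_515_1182 and new_exon_scaffold_12_721, at -1.74 to -1.01. new_exon_scaffold_393_609 (344 bases) had 1.73, 2.05 and 1.98 CPM in WT T3 and 0.617, 0.354 and 0.871 CPM in mutant T3, a difference of -1.63 ± 0.36 (adjusted p = 0.021), which DESeq2 did not call. WT T3 was the only group in which its mean was above 1 CPM, so that it passed the limit only through the group in which it was high. In mutant T3 the mean of new_exon_scaffold_12_721 was 0.977 CPM, also under the limit. new_exon_scaffold_515_1182 had 15.6, 14.8 and 18.0 CPM in WT T3 and 7.16, 6.96 and 7.48 CPM in mutant T3 (-1.16 ± 0.14, adjusted p = 0.0011). The mutant T3 libraries of that feature lay between those of WT vehicle, at 3.93 to 6.30 CPM, and those of WT T3.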

How the data were processed

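Per the labels and the methods, the authors mapped single-end 50 nt Illumina reads with Bowtie to X. tropicalis genome build v4.1 (base calls by CASAVA 1.8.2, trimming with cutadapt) and counted them with RSEM. No source used here gives the RSEM version or the origin of new_exon features. The authors deposited expected counts, not normalized, with TPM and lengths per library, and TPM was used for levels per length only. The number of columns of per-sample values that matched no library was 0.

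The deposited expected counts were rounded, scaled by TMM and filtered with filterByExpr over 4 groups, and 22018 features were fitted with edgeR 4.0.16 (R 4.3.3) in 1 model of all libraries, with Benjamini-Hochberg adjustment over all of them. Called means adjusted p under 0.05. Errors of fold changes are SE, derived as the absolute log2 fold change over the square root of the F statistic of edgeR's quasi-likelihood test. CPM uses unrounded counts and library totals, and a count within 1e-09 of an integer is called whole. The code was tested on simulated data. All 1970 features passed the filter.

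Alternatives were DESeq2 1.42.0, limma-voom (limma 3.58.1), RLE size factors, no filter, only the groups compared, a replicate block, leaving out each library, a fold change over 0.5, other CPM limits and shares relative to XLOC counts. Features named are the 10 most abundant, the 5 largest called changes in each direction with groups that do not overlap, the 3 on either side of the limit, and the 5 scaffolds with most features and with most T3 calls. Members and lists were chosen with earlier results of these data known. Gene symbols of XLOC ids come from a supplementary table of the study, and its values were not used. That table lists genes the study called for T3 in WT.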

Additional observations from a re-analysis of the deposited data

Results flagged for a closer look

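The T3 response differed between thra mutant and WT, by edgeR's test of the difference itself, for 10 expressed new_exon features. In log2 units, mutant response minus WT response, the values were -1.65 for new_exon_scaffold_129_197, -1.24 for new_exon_scaffold_884_1299, -1.17 for new_exon_scaffold_515_1189 and -1.15 for new_exon_scaffold_515_1182. They were -1.01 for new_exon_scaffold_448_747, -0.88 for new_exon_scaffold_515_1199, -0.77 for new_exon_scaffold_332_785, -0.72 for new_exon_scaffold_363_627 and -0.56 for new_exon_scaffold_92_1207. new_exon_scaffold_482_735 was the only one with a positive value, 0.88. Over the 17 alternatives of this test, the calls of new_exon_scaffold_332_785 and new_exon_scaffold_363_627 held in all, and each of the other 8 was lost in 4 to 10. No group had the 4 libraries needed to look for outlying samples.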

How the results depend on the processing

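Counts are of expressed new_exon features called for T3 in WT (154), T3 in thra mutant (5), genotype in vehicle (8), genotype under T3 (124) and the difference of responses (10). The cause of each change below was not tested. DESeq2 called 236, 31, 40, 235 and 30, and 18.8%, 2.16%, 2.72%, 16.4% and 3.84% of all features to which it gave an adjusted p. With only the groups compared, which estimates the spread from 6 libraries, the first 4 were 101, 1, 1 and 231. The shares of all features called were 8.38%, 0.14%, 0.132% and 14.8%. A fold change over 0.5 as well left 78 for T3 in WT, 4 for genotype in vehicle and 60 for genotype under T3. The share of all features that met this limit was not counted, so the drop cannot be read as particular to new_exon features. For T3 in the mutant limma-voom called 3 and no filter called 8, with 0.186% and 0.381% of all features called. With a single library left out the counts were 57 to 173, 0 to 10, 1 to 32, 22 to 198 and 2 to 10. The shares of all features called were 3.68% to 11.3%, 0.111% to 0.797%, 0.147% to 2.25%, 1.31% to 11.8% and 0.17% to 0.575%. Deviations of same-numbered libraries correlated at -0.085 to 0.072, and those of differently numbered ones at -0.142 to 0.155. With 3 libraries per group, these values cannot decide whether replicate numbers pair the samples. With the replicate block the counts were 114, 3, 4, 89 and 8, at 8.41%, 0.136%, 0.345%, 4.86% and 0.341% of all features. Membership was 1970 with TMM library sizes, 2551 at 0.5 CPM, 1509 at 2 CPM and 1961 to 1975 with a library left out. No called value of a named feature changed sign, and 34 of 88 held in all alternatives. Among 22 uncalled values, the mutant T3 response of new_exon_scaffold_448_747 ranged from -0.12 to 0.0046 with a library left out, above 0 only without mutant vehicle replicate 1. That of new_exon_scaffold_129_197 ranged from -0.25 to 0.14, above 0 without mutant vehicle replicate 2 (0.0081) and mutant T3 replicate 2. The share of counts and the share of neighbours of 1 sign kept their direction, but their alternatives could hardly have changed it. The first divided the same counts by XLOC counts, and the second kept 189 of 195 pairs. Features near 1 CPM rest on few counts, with a median SE of 0.23 between 1 and 2 CPM against 0.070 above 100 CPM.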
